A study of Saccharomyces cerevisiae with 78 samples.

Results

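The 10 genes described here belong to the peroxide defence of budding yeast (Saccharomyces cerevisiae): AHP1 (locus tag YLR109W), TSA1 (YML028W), TSA2 (YDR453C), PRX1 (YBL064C), GPX2 (YBR244W), TRX2 (YGR209C), TRR1 (YDR353W), CTT1 (YGR088W), CCP1 (YKR066C) and SOD2 (YHR008C). They were taken by locus tag from the 5229 genes counted in 78 RNA-seq libraries, and all 10 had a row of their own and passed the filter on low counts. AHP1 was chosen by its measured level, which was higher in the clone M491-F10 than in the control, and the others were set beside it for their shared role. For that reason M491-F10 against the control, for all 10 genes, and AHP1 against the control, in every clone, are given as descriptions with no test.

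The study measured polyadenylated RNA in the haploid laboratory strain BY4742 carrying plasmids with combinatorial fusion genes, that is, genes joined to one another. The labels hold 25 such clones, where the design text speaks of 22, and the labels do not say which genes each clone joins. The clones are set against BY4742 with the control plasmid, which the design text calls an empty vector. Clones and control alike were grown in galactose medium lacking uracil (SDCGal-Ura) and harvested in mid-logarithmic phase, so galactose does not separate them. Each of the 26 groups has 3 biological replicates per the labels. By their library names, replicates 1 and 2 of each group belong to a first set and replicate 3 to a set that was resubmitted. The plate rows given below were read from the first letter of each library name, after any mark of resubmission. They are thus a reading of the names as well positions.

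Yeast removes hydrogen peroxide and organic peroxides largely with peroxiredoxins, enzymes whose reactive cysteine reduces the peroxide and is then reduced by thioredoxin. Thioredoxin is recharged by thioredoxin reductase at the expense of NADPH, and the yeast enzymes named glutathione peroxidases also draw on thioredoxin. Catalase and cytochrome c peroxidase remove hydrogen peroxide with a heme group instead, while superoxide dismutase produces it from superoxide. Many of these genes are switched on by the transcription factors Yap1 and Skn7, which respond to peroxide, or by Msn2 and Msn4, which respond to stress in general.

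The libraries held 10773809 to 18981572 counts (median 14019225), of which single genes of the 10 had between 152 (GPX2) and 17846 (TSA1). The alpha mating type of BY4742 could be followed through MF(ALPHA)1, the alpha factor gene, at 207 to 865 CPM (counts scaled to a common library size). STE3 stood at 126 to 282 CPM, SAG1 at 75.7 to 214 CPM and MF(ALPHA)2 at 15.0 to 55.4 CPM. Of 5 listed genes of the a type 2 had a row, STE2 at 15.8 to 27.0 CPM and BAR1 at 8.38 to 14.6 CPM. The range of MF(ALPHA)2 thus overlapped that of STE2. The library set moved most of the 10 genes: 8 were lower in the resubmitted set and none was higher, where over all 5212 genes tested 43.2% were lower and 41.4% higher (edgeR's quasi-likelihood test, Benjamini-Hochberg adjusted p under 0.05). DESeq2 gave the same counts of 8 and 0, and the count of 0 became 1 (GPX2) without the filter on low counts, and in 34 of the 78 fits that left out 1 library. The shift was largest for TRX2, at -0.62 on the log2 scale, and PRX1, at -0.52, and did not pass for CTT1, at -0.04 (adjusted p = 0.199), or GPX2, at 0.12 (adjusted p = 0.0524). The set was therefore a term in the fit behind the calls given here, and within-set values are added for some genes. Library names and titles differ in 2 places: control replicate 3 has a plasmid code unlike that of the other controls, and M492-E01 has a different clone code in replicates 1 and 2.

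In control cells the peroxiredoxin gene TSA1 had the highest level for its length, at 1163 CPM per kb of coding sequence, followed by the thioredoxin gene TRX2 at 994 and AHP1 at 750. PRX1 stood at 662, SOD2 at 464, TRR1 at 404 and CCP1 at 337 CPM per kb. TSA2, at 90.6, CTT1, at 88.8, and GPX2, at 42.9 CPM per kb, were the low genes of the group. The low genes TSA2 and CTT1, together with AHP1, also varied most between groups. The highest group mean was 3.09 times the lowest for TSA2, 2.41 times for AHP1 and 2.27 times for CTT1, against 1.38 times for TSA1 and 1.22 times for TRR1. Summed over the 10 genes, the libraries of M495-F02 held 4346 ± 726 CPM and those of M491-F10 4228 ± 681 CPM, and those of the control 3223 ± 285 CPM (SD, 3 libraries each). These sums include AHP1, the gene chosen for its rise in M491-F10. Its means were 958 CPM in M495-F02, 844 CPM in M491-F10 and 398 CPM in the control.

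**Figure D1:**
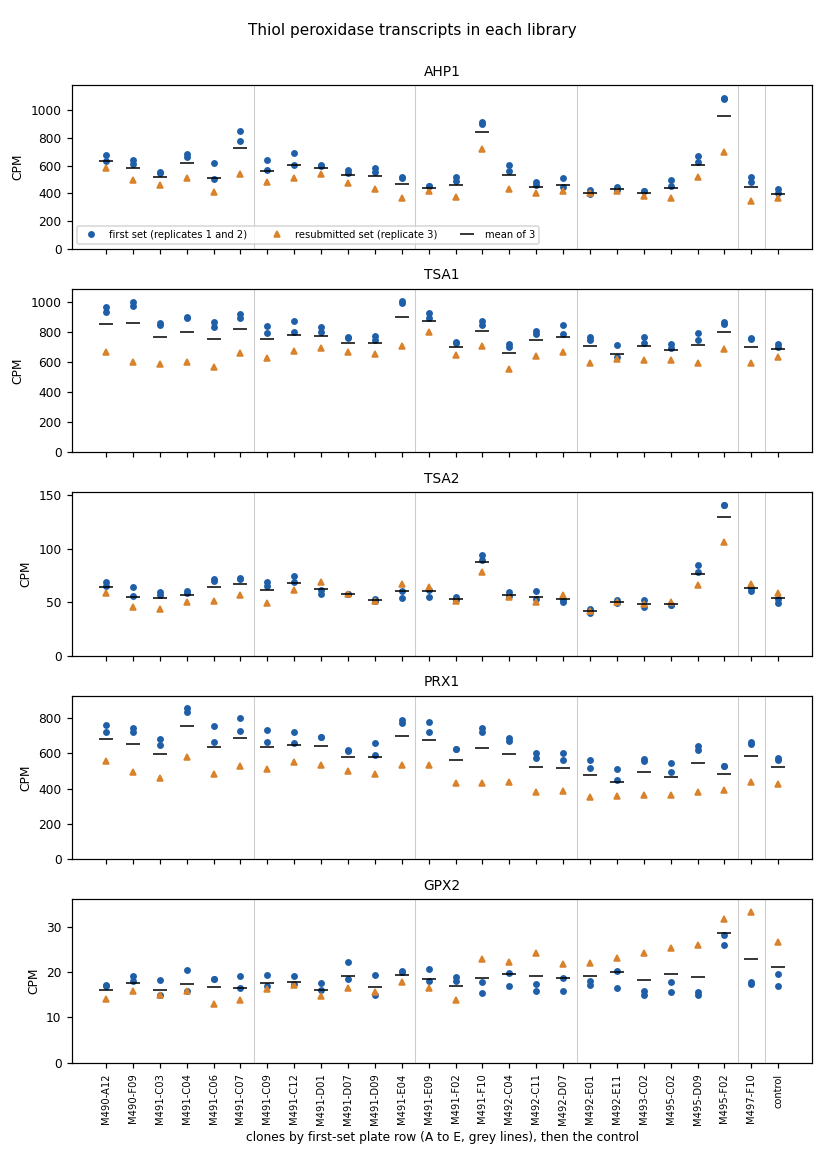
Levels of the thiol peroxidase genes AHP1, TSA1, TSA2, PRX1 and GPX2 in CPM (linear axes from 0) in every library. Clones run by their plate row in the first set, A to E, with the control at the right; circles are the first set, triangles the resubmitted set and bars the mean of 3. M495-F02 stands highest for AHP1, TSA2 and GPX2, and the control has the lowest AHP1 mean, 398 CPM.

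The question put to these genes by the design is whether cells carrying a fusion gene differ from cells carrying the control plasmid. Where they did, the peroxide defence genes were mostly higher: 35 of 216 tests (9 genes without AHP1, in 24 clones without M491-F10) passed as higher and 7 as lower, and 174 did not pass. Over all genes and the same 24 clones, 5.62% of tests passed as higher and 4.56% as lower. All 7 lower calls belong to TRR1, and the other 8 genes had 0 lower calls in 192 tests by edgeR, with 10 at an unadjusted p under 0.05 and 2 by DESeq2. The 24 comparisons share the 3 control libraries, so a control library that is high or low for a gene moves that gene in every clone. Higher calls were also uneven over the plate rows of the first set. Rows A and B hold 12 of the 24 clones. In them lay 9 of 10 for PRX1, 5 of 7 for SOD2 and 4 of 6 for TSA1. They held 2 of 3 for TRX2, 2 of 4 for TSA2, 1 of 2 each for CTT1 and CCP1, and 0 of 1 for GPX2. The share of calls over all genes that lay in rows A and B was not worked out. The median absolute log2 fold change over all genes was 0.090 to 0.119 in the clones of rows A and B. In the other tested clones it was 0.057 to 0.097, apart from M495-F02 at 0.202. M495-F02, of row D, had 6 higher calls. Only M497-F10 shared row E with the control, so steps between clone and control and between plate rows cannot be told apart. Of the 216 tests 2 passed with a change of at least 2-fold, TSA2 and CTT1 in M495-F02, and the share over all genes was not worked out. Of the 24 clones, 15 had at least 1 call and 9 had none, with 15 of 81 tests at an unadjusted p under 0.05 in those 9 and 1 call by DESeq2. Without the term for the library set 4 higher calls were left (TSA2 in M495-F02 and M495-D09, CTT1 and SOD2 in M495-F02) and 0 lower ones by edgeR (2 at an unadjusted p under 0.05), so the other calls against the control rest on that term. The log2 fold changes themselves moved little without it: PRX1 in M491-C04 was at 0.54 in place of 0.53, TSA1 in M491-E04 at 0.39 in place of 0.38 and TRX2 in M495-F02 at 0.61 in place of 0.59. Leaving out control replicate 1 brought the higher calls to 20, and leaving out control replicate 3 brought the lower calls to 1.

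**Figure D2:**
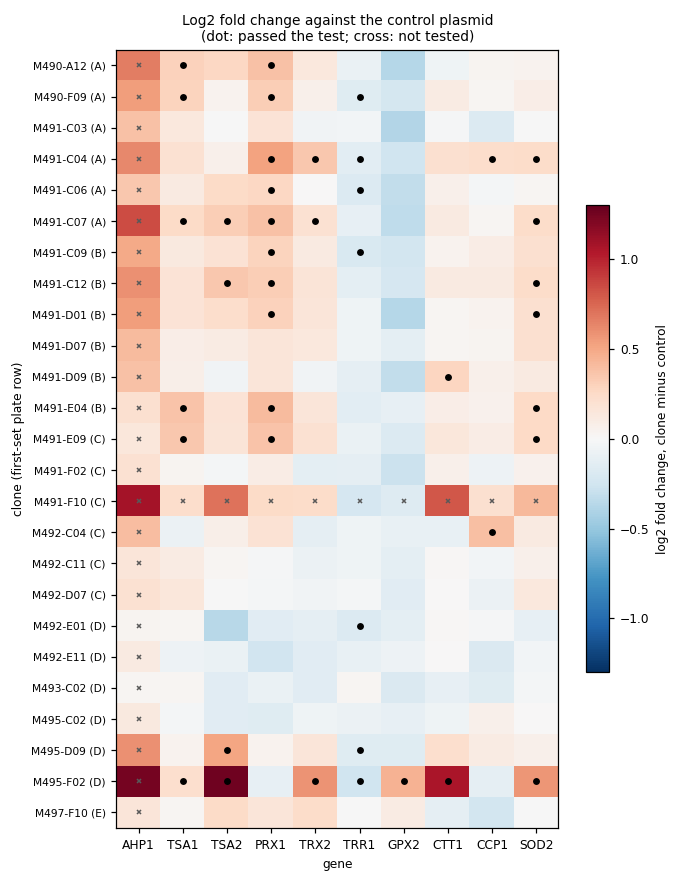
Log2 fold change of each of the 10 genes (columns) in each of 25 clones (rows, with the first-set plate row in brackets) against the control; red is higher in the clone and blue lower, dots mark tests that passed and crosses values that were not tested. PRX1 has most of its 10 dots in rows A and B, and TRR1 has the 7 dots on the blue side.

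AHP1 encodes a cytosolic peroxiredoxin that uses thioredoxin and is known for its action on organic peroxides. Its mean was lowest of all 26 groups in the control. The libraries of M495-F02 held 1092, 1083 and 701 CPM, those of M491-F10 916, 898 and 719 CPM, and those of M491-C07 780, 853 and 539 CPM, against 399, 430 and 365 CPM in the control. In all 3 clones every library was above every control library, with the resubmitted library the lowest of its clone. The log2 fold change was 1.25 (SE 0.0876) in M495-F02, 1.08 (SE 0.0873) in M491-F10 and 0.84 (SE 0.0870) in M491-C07. Within the first set it was 1.39, 1.13 and 0.98 in these clones in that order, and within the resubmitted set 0.94, 0.98 and 0.56. At the other end stood M493-C02 with 419, 415.9 and 380 CPM, M492-E01 with 421, 395 and 400.0 CPM, and M492-E11 with 423, 447 and 417 CPM. These 3 clones overlapped the control, with log2 fold changes of 0.03, 0.03 and 0.11. AHP1 was above the control in both library sets in 22 of 25 clones, all of them set against the same 3 control libraries. It was chosen for a rise over those same control libraries. Most neighbours in the order of levels could not be told apart: with the set difference taken out, 1 of 25 neighbouring pairs did not overlap, M491-F10 above M491-C07. The share over all genes was not worked out for either count, so neither shows that AHP1 stands apart.

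AHP1 also varied with the plate row of the first set. The median log2 fold change against the control was 0.59 in the 6 clones of row A, 0.45 in the 6 of row B, 0.20 in the 6 of row C and 0.12 in the 6 of row D. Row E held the control and M497-F10, whose AHP1 log2 fold change was 0.15, so a step between the control and a clone of another row and a step between plate rows cannot be told apart. Against the mean of the other clones of its own row, which uses no control library and leaves out M491-F10, AHP1 was higher by 1.07 (log2, SE 0.0619) in M495-F02 and by 0.85 (SE 0.0628) in M491-F10. In M491-C07 that difference was 0.33 (SE 0.0652). Over all genes and 23 clones, 10.3% of such tests within a row passed.

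TSA1, the main cytosolic peroxiredoxin and a chaperone under strong oxidation, rose in 6 of 24 clones and fell in none (0 at an unadjusted p under 0.05, and 0 by DESeq2). The libraries of M491-E04 held 995, 1007 and 707 CPM, those of M491-E09 929, 895 and 799 CPM, and those of M490-A12 932, 966 and 666 CPM, against 701, 724 and 637 CPM in the control. M491-E09 lay wholly above the control, while the resubmitted libraries of M491-E04 and M490-A12 lay within the control's range. The log2 fold changes were 0.38 (SE 0.0760, adjusted p = 0.000796), 0.35 (SE 0.0759, adjusted p = 0.00275) and 0.30 (SE 0.0759, adjusted p = 0.0033) in these clones in that order (edgeR). The call in M490-A12 was lost against the other clones of its row, where the difference was 0.10 (adjusted p = 0.314).

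TSA2 encodes a second cytosolic peroxiredoxin, close in sequence to TSA1 and known to be low in unstressed cells. It rose in 4 of 24 clones, with none lower by edgeR (1 at an unadjusted p under 0.05, and 1 by DESeq2). M495-F02 had 141, 141 and 106 CPM, against 49.1, 53.2 and 58.2 CPM in the control, with no overlap. The log2 fold change was 1.26 (SE 0.110, adjusted p = 1.41e-14), at 1.46 within the first set and 0.86 within the resubmitted set. M495-D09 had 85.0, 78.2 and 66.2 CPM, also above every control library, with a log2 fold change of 0.51 (adjusted p = 0.000553, SE 0.110), at 0.67 within the first set and 0.19 within the resubmitted one. M491-C12 had 68.8, 74.3 and 61.6 CPM and a log2 fold change of 0.35 (adjusted p = 0.0409). That last call was lost when any 1 of its own libraries or control replicate 1 or 2 was left out, with adjusted p between 0.0701 and 0.248, and against the other clones of its row, at 0.22 (adjusted p = 0.923). Reads shared by TSA1 and TSA2 were not counted, since the authors counted unique hits.

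PRX1, the mitochondrial peroxiredoxin, was the gene with the most calls, higher in 10 of 24 clones and lower in none (3 at an unadjusted p under 0.05, and 1 by DESeq2). M491-C04 had 855, 835 and 577 CPM, M491-E04 786, 771 and 534 CPM, and M491-C07 724, 802 and 527 CPM, against 561, 572 and 428 CPM in the control. All 3 clones were above the control within each library set, and M491-C04 overlapped it in no library. The log2 fold changes were 0.53 (SE 0.0683, adjusted p = 1.28e-07), 0.41 (SE 0.0682, adjusted p = 5.13e-05) and 0.39 (SE 0.0682, adjusted p = 2.53e-05) in these clones in that order (edgeR). Of the 10 calls 9 were in the 12 clones of rows A and B, and 1, M491-E09 at 0.37 (adjusted p = 0.000235), was in row C. How calls over all genes were split between the rows was not worked out. Against the other clones of their rows M491-C04 kept a difference of 0.22 (adjusted p = 0.00302) and M491-E04 one of 0.17 (adjusted p = 0.0247), and M491-C07 did not pass, at 0.05 (adjusted p = 0.553). In M495-F02, where AHP1 and TSA2 were highest, PRX1 had 528, 528 and 394 CPM, a log2 fold change of -0.11 that did not pass (adjusted p = 0.188).

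GPX2, one of the glutathione peroxidase-like enzymes that draw on thioredoxin, was the lowest of the 10 genes and passed in 1 of 24 clones. M495-F02 had 25.9, 28.1 and 31.7 CPM, against 19.6, 16.9 and 26.5 CPM in the control, so the ranges overlapped while the clone was above the control within each set. The log2 fold change was 0.45 (SE 0.195, adjusted p = 0.0468). The call was lost when any 1 library of the clone or control replicate 1 or 2 was left out, with adjusted p between 0.0534 and 0.209. Most other clones lay on the other side: GPX2 was below the control in both library sets in 15 of 25 clones and above in both in 1. None of these passed as lower, and the share over all genes was not worked out.

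**Figure D3:**
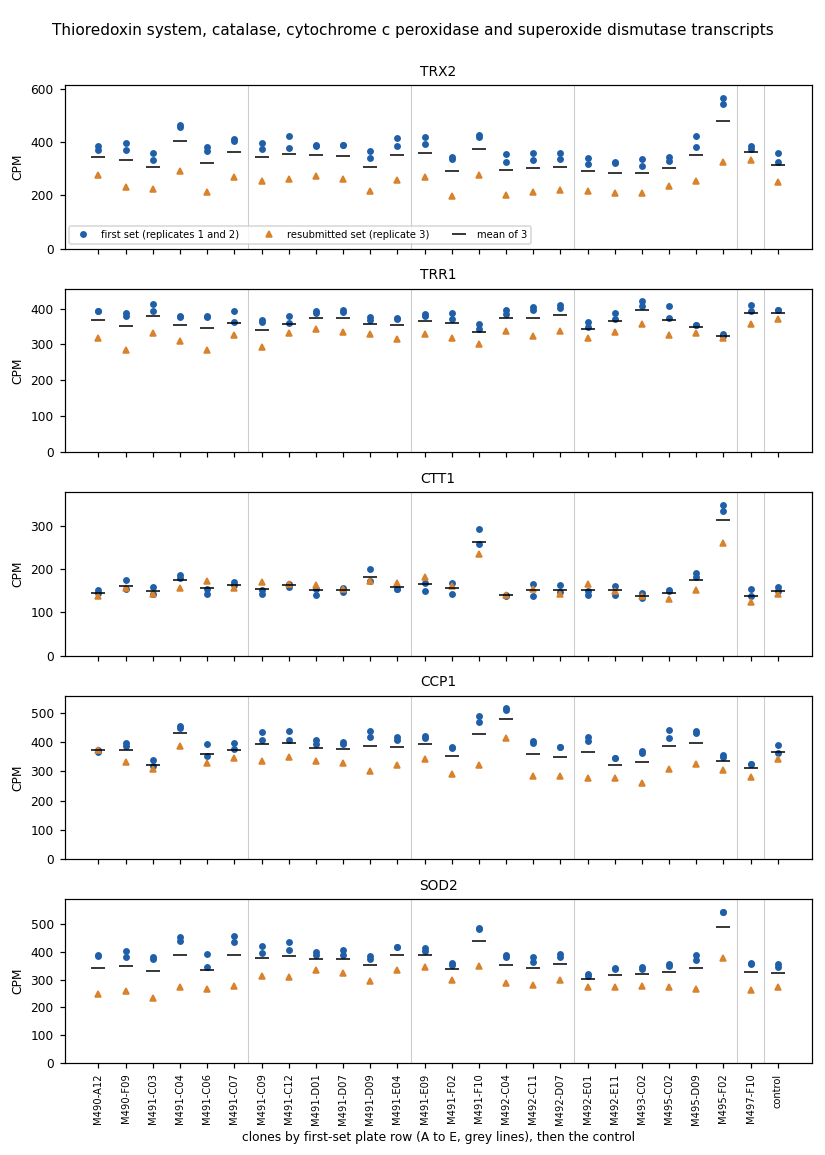
Levels of TRX2, TRR1, CTT1, CCP1 and SOD2 in CPM (linear axes from 0) in every library, drawn as for the thiol peroxidases, with the control at the right. CTT1 stands highest in M495-F02 and M491-F10, CCP1 in M492-C04, and the resubmitted libraries (triangles) of TRX2 and SOD2 lie below the first set in every group.

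TRX2, a cytosolic thioredoxin that passes electrons to the peroxiredoxins, rose in 3 of 24 clones. M495-F02 had 545, 568 and 325 CPM, M491-C04 458, 465 and 291 CPM, and M491-C07 407, 411 and 268 CPM, against 360, 327 and 252 CPM in the control. All 3 were above the control within each set, although their resubmitted libraries lay below the first control libraries. The log2 fold changes were 0.59 (SE 0.0706, adjusted p = 5.25e-10) and 0.35 (SE 0.0706, adjusted p = 0.000357) in M495-F02 and M491-C04. M491-C07, at 0.20 (adjusted p = 0.0346), lost the call when any 1 of its own libraries or control replicate 1 or 2 was left out, with adjusted p between 0.0680 and 0.234, and against the other clones of its row (0.09, adjusted p = 0.225).

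TRR1, the thioredoxin reductase that recharges thioredoxin with NADPH, was the 1 gene of the group with lower calls. It passed as lower in 7 of 24 clones, with none higher (0 at an unadjusted p under 0.05, and 0 by DESeq2). M495-F02 had 323, 329 and 317 CPM, M491-C09 368, 362 and 293 CPM, and M492-E01 349, 362 and 318 CPM, against 396, 396 and 370 CPM in the control. All libraries of the 3 clones lay below all control libraries, though the changes were small. The log2 fold changes were -0.26 (SE 0.0489, adjusted p = 1.04e-05), -0.19 (SE 0.0489, adjusted p = 0.00803) and -0.18 (SE 0.0489, adjusted p = 0.0246) in these clones in that order (edgeR). M495-F02 was also lower than the other clones of its row, by -0.17 (adjusted p = 0.000218). M491-C09 lost its call without its own replicate 3 or without control replicate 3 (adjusted p = 0.0585 and 0.0828), and M492-E01 without its own replicate 1 or 2 or control replicate 3 (adjusted p between 0.0834 and 0.209). Neither passed against the other clones of its row, at -0.09 and -0.07 (adjusted p = 0.220 and 0.274). TRR1 was below the control in both library sets in 20 of 25 clones, a count for which the share over all genes was not worked out.

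CTT1, the cytosolic catalase and a classic Msn2 and Msn4 target, rose in 2 of 24 clones. M495-F02 had 348, 334 and 260 CPM, against 149, 159 and 142 CPM in the control, with no overlap, a log2 difference of 1.07 (adjusted p = 3.83e-14, SE 0.0953) and within-set values of 1.15 and 0.87. M491-D09 had 173, 201 and 172 CPM, above all control libraries, and a log2 fold change of 0.28 (adjusted p = 0.0398). The call in M491-D09 was lost without any 1 of its own libraries or control replicate 1 or 3 (adjusted p between 0.0576 and 0.215) and against the other clones of its row, at 0.22 (adjusted p = 0.0566).

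CCP1, the cytochrome c peroxidase of the mitochondrial intermembrane space, rose in 2 of 24 clones, neither of them M495-F02. M492-C04 had 517, 511 and 415 CPM, against 364, 391 and 343 CPM in the control, with no overlap, at 0.39 (log2, adjusted p = 0.000163, SE 0.0743). Against the other clones of its row it was higher by 0.41 (adjusted p = 1.69e-07). M491-C04 had 449, 455 and 389 CPM and a log2 fold change of 0.23 (adjusted p = 0.0252). That call was lost without its own replicate 2 or 3 or control replicate 1 or 2 (adjusted p between 0.0503 and 0.200). It was also lost when row A of the resubmitted set had a batch term apart from its rows B and C (adjusted p = 0.0559). That fit had no term for the plate rows of the first set. Against the other clones of its row M491-C04 passed, at 0.26 (adjusted p = 0.00141). In M495-F02 the libraries had 356, 350 and 307 CPM, at a log2 fold change of -0.12 (adjusted p = 0.180).

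SOD2, the manganese superoxide dismutase of the mitochondrial matrix, rose in 7 of 24 clones and fell in none (0 at an unadjusted p under 0.05, and 0 by DESeq2). M495-F02 had 545, 546 and 378 CPM, M491-E09 416.1, 403 and 347 CPM, and M491-E04 417, 419 and 334 CPM, against 344, 358 and 275 CPM in the control. M495-F02 lay above all control libraries, and the other 2 clones lay above the control within each set. The log2 fold change was 0.58 (SE 0.0719, adjusted p = 1.37e-09) in M495-F02 and 0.26 in both M491-E09 (adjusted p = 0.0222) and M491-E04 (adjusted p = 0.0164). The calls in M491-E09 and M491-E04 were lost without the clone's own replicate 3 or control replicate 1 or 2, with adjusted p between 0.0522 and 0.192. Against the other clones of their rows M491-E09 passed, at 0.17 (adjusted p = 0.0476), and M491-E04 did not, at 0.07 (adjusted p = 0.487).

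A comparison among the clones themselves needs no control library. The levels of 9 of the 10 genes differed among the 24 clones other than M491-F10 in edgeR's F test, where 82.8% of all genes did, so the count for these 10 is near that background. Adjusted p was 4.43e-19 for AHP1, 6.65e-17 for PRX1, 1.77e-16 for TSA2, 2.22e-14 for CTT1 and 8.58e-14 for TRX2, and 0.0598 for GPX2, which did not pass. Without M495-F02 the count was 9 of 10, where 74.7% of all genes passed. Within plate rows, where clones were set only against clones of the same row, 9 of 10 passed again, where 73.5% of all genes did. Within rows and without M495-F02 the 9 passed once more, where 58.7% of all genes did, with adjusted p = 1.59e-08 for AHP1, 0.0167 for CTT1 and 0.0135 for SOD2.

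Each clone was then set against the mean of the other 23. Of 240 such tests over the 10 genes 27 passed as higher and 38 as lower, where 6.47% and 6.25% of tests over all genes did. AHP1 was higher than in the other clones in 5 and lower in 8. It was higher in M495-F02, by 0.89 (log2, adjusted p = 2.47e-20, SE 0.0566), in M491-C07, by 0.47 (SE 0.0593, adjusted p = 2.59e-08), and by 0.21 to 0.28 in M490-A12, M491-C04 and M495-D09. This comparison does not take the plate row into account. Against the other clones of their rows the higher calls of AHP1 in M490-A12 (0.11, adjusted p = 0.307) and M491-C04 (0.07, adjusted p = 0.518) were lost. So were its lower calls in M491-E09 (-0.09, adjusted p = 0.441) and M492-C11 (-0.08, adjusted p = 0.776), and M497-F10 had no other clone in its row. AHP1 was lowest in M493-C02, at -0.38 (SE 0.0650, adjusted p = 4.57e-05), and M492-E01, at -0.38 (SE 0.0649, adjusted p = 4.72e-05). PRX1 showed 6 higher and 7 lower clones, between 0.39 in M491-C04 (adjusted p = 2.87e-08) and -0.43 in M492-E11 (adjusted p = 8.84e-09), and within their rows these were 0.22 (adjusted p = 0.00302) and -0.16 (adjusted p = 0.0372). M492-E11 and M493-C02 were each lower for several of the genes, including AHP1, TSA2, PRX1, TRX2, CCP1 and SOD2 in both. Other clones of their row D were lower too. In M492-E01 these were AHP1, TSA2 (-0.52, adjusted p = 1.46e-05), PRX1, TRX2 and SOD2, and in M495-C02 AHP1, TSA2 and PRX1. Within the row AHP1, TSA2 and TRX2 passed in both M492-E11 and M493-C02, and PRX1 in M492-E11 alone (0.04 in M493-C02, adjusted p = 0.712). CCP1 and SOD2 passed in neither (adjusted p between 0.0539 and 0.134). The row mean used there includes M495-F02, the highest group for AHP1, TSA2 and TRX2. For TSA2 the row held 129 CPM in M495-F02, 76.5 in M495-D09, 48.2 in M495-C02 and 41.8 in M492-E01. M492-E11 had 50.5 and M493-C02 48.3 CPM. Single clones were not tested against the row without M495-F02. For GPX2 and TSA2 the largest differences were in M495-F02, at 0.66 (adjusted p = 2.71e-05) and 1.17 (adjusted p = 1.06e-21). CCP1 and PRX1 were lower in M495-F02 than in the other clones, at -0.14 (adjusted p = 0.0271) and -0.28 (adjusted p = 5.25e-06), where the same genes did not pass against the control. Within the row neither passed, with CCP1 at -0.08 (adjusted p = 0.222) and PRX1 at 0.01 (adjusted p = 0.868).

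M495-F02 had the most calls among the 9 genes tested against the control, 6 higher and 1 lower, in a clone where 50.2% of all genes passed, 25.5% as higher and 24.7% as lower. TSA1, TSA2, TRX2, GPX2, CTT1 and SOD2 rose and TRR1 fell, and PRX1 and CCP1 did not pass. The median log2 fold change of the 9 genes was 0.45, against 0.01 over all genes. TSA1 was at 0.22 (adjusted p = 0.0154).

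Genes beside these in the same pathways moved in M495-F02 in both directions. Among the regulators 2 of 6 rose: HYR1, the peroxidase that senses peroxide for Yap1, by 0.52, and SKN7, by 0.43, while YAP1 itself was at 0.10 and did not pass. Of 6 other thioredoxin system genes 4 rose, led by DOT5, a nuclear peroxiredoxin, at 0.78, and TRX3, the mitochondrial thioredoxin, at 0.68, and TRX1, the second cytosolic thioredoxin, fell, at -0.46. Of 10 glutathione and glutaredoxin genes 3 rose, with GTT1, a glutathione transferase, at 0.78 and GRX1, a glutaredoxin, at 0.67, and 3 fell, with GRX3, a glutaredoxin of iron signalling, at -0.41. SOD1, the cytosolic superoxide dismutase, rose by 0.26, a call lost without control replicate 1 (adjusted p = 0.108). Of 8 Yap1 targets of detoxification and NADPH supply 3 rose, with GRE2, a methylglyoxal reductase, at 1.94 and ATR1, a drug exporter, at 0.55, and 2 fell, with ZWF1, the first enzyme of the pentose phosphate pathway, at -0.42. Of 17 general stress genes 9 rose and 4 fell: the small heat shock gene HSP26 was at 2.13 and HSP12 at 1.83, while PGM2, phosphoglucomutase, was at -1.21 and HXK1, a hexokinase, at -1.003. Of 17 respiration genes 12 fell and 5 did not pass, with CYC7, a cytochrome c isoform, at -0.68 and SDH1, a subunit of succinate dehydrogenase, at -0.47. Except for YAP1, the genes named here passed at an adjusted p under 0.05 (edgeR), and TRX1, GRX3, SOD1, CYC7 and SDH1 lost the call without the term for the library set. Of the 4 alpha mating type genes 2 were lower, MF(ALPHA)1 at -0.67 among them, and what part that has in these results was not tested.

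**Figure D4:**
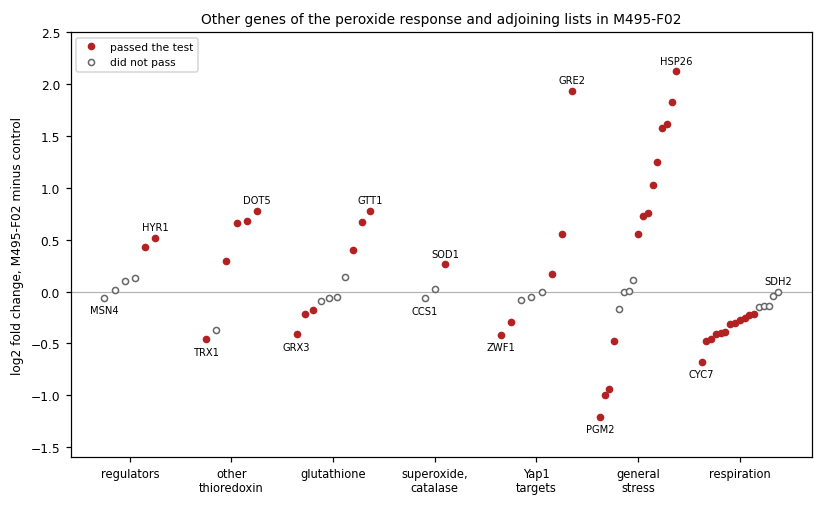
Log2 fold change in M495-F02 against the control (linear axis) for genes of 7 lists beside the 10 genes, each point 1 gene; filled points passed the test and open points did not. General stress genes spread from -1.21 (PGM2) to 2.13 (HSP26), and the respiration genes that passed lie below 0.

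M491-C07 had 5 higher calls among the 9 genes (TSA1, TSA2, PRX1, TRX2 and SOD2), where 24.1% of all genes passed, 12.2% as higher and 11.9% as lower, and a median log2 fold change of 0.20, against -0.001 over all genes. YAP1 and MSN4 rose by 0.40 each, the MSN4 call being lost without control replicate 3 (adjusted p = 0.0952), and GTT1 rose by 0.38. Of 17 general stress genes 9 rose, with HSP26 at 1.23, and 1 fell, and of 17 respiration genes 4 rose and 13 did not pass. M491-C04 had 4 higher calls (PRX1, TRX2, CCP1 and SOD2) and 1 lower (TRR1), where 15.3% of all genes passed, 8.21% as higher and 7.08% as lower. In that clone 9 of 17 general stress genes rose and 8 did not pass, with HSP26 at 1.10 and HSP12 at 0.88, and GTT1 rose by 0.41. M491-E09 had 3 higher calls (TSA1, PRX1 and SOD2), where 3.89% of all genes passed, 2.61% as higher and 1.29% as lower. There 1 of 17 general stress genes passed, HSP12 at 0.77, and 3 of 17 respiration genes, the succinate dehydrogenase genes SDH2, SDH3 and SDH4. Without the term for the library set HSP12 lost its call in M491-C04 (adjusted p = 0.0720) and M491-E09 (adjusted p = 0.376). SDH2 and SDH4 lost theirs in M491-E09 (adjusted p = 0.202 and 0.519, edgeR). The 4 alpha mating type genes were all lower in M491-C04 and M491-E09, with MF(ALPHA)1 at -1.25 and -1.13, and their part in those clones' results was not tested.

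In M491-F10, the clone that led to the choice of AHP1, the other genes are described without a test. TSA2 had 94.5, 89.4 and 78.7 CPM, against 49.1, 53.2 and 58.2 CPM in the control. CTT1 had 293, 257 and 234 CPM, against 149, 159 and 142 CPM in the control. For both genes all clone libraries were above all control libraries, with log2 fold changes of 0.70 and 0.80. TRR1 lay wholly below the control, at 301 to 357 CPM against 370 to 396 CPM. The share of all genes without overlap in this clone was not worked out. SOD2 was at 0.42, PRX1 at 0.25, TRX2 at 0.24, TSA1 at 0.23 and CCP1 at 0.20, TRR1 at -0.22 and GPX2 at -0.16. The median of these 9 genes was 0.24, against -0.009 over all genes, of which 20.4% passed. PRX1 and CCP1 were above the control in the first set alone, at 0.37 and 0.35, and near it in the resubmitted set, at 0.005 and -0.09. The other lists spread to both sides of 0 in M491-F10. General stress genes had a median of 0.59, between HSP26 at 1.64 and HSP12 at 1.40 on one side and PGM2 at -0.54 and HXK1 at -0.41 on the other. Other thioredoxin genes lay between TRX3 at 0.40 and MXR1 at -0.32, and glutathione genes between GTT1 at 0.41 and GRX3 at -0.34. GRE2 was at 1.24 and OYE2 at -0.07 among the Yap1 targets, and YAP1 itself was at 0.10.

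**Figure D5:**
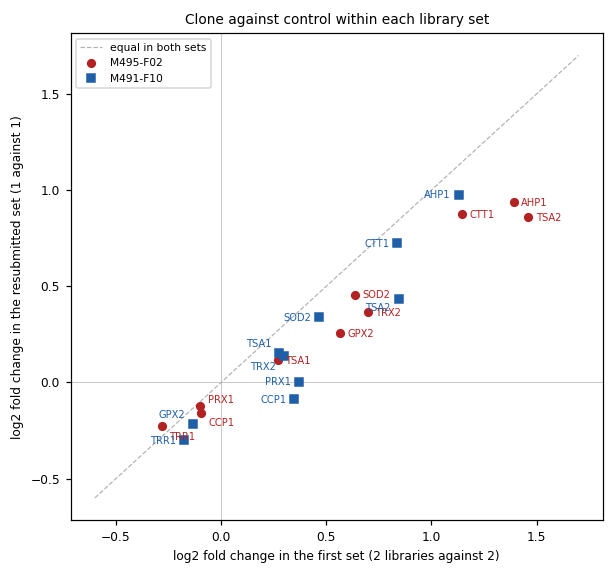
Log2 fold change of the 10 genes against the control within the first set (horizontal axis, 2 libraries against 2) and within the resubmitted set (vertical axis, 1 against 1), for M495-F02 (red circles) and M491-F10 (blue squares). Most points above 0 lie under the line of equal values, among them TSA2 in M495-F02 at 1.46 and 0.86.

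As a description, each gene's 26 group means (log2 CPM, averaged over both sets) were set beside those of 4874 genes with at least 10 CPM on average. The groups share libraries with all other genes, and M495-F02 and M491-F10 weigh heavily, so r is also given without them (24 groups). The genes most like AHP1 were AMS1, the vacuolar mannosidase (r = 0.94, 0.91 without the 2 clones), GTT1 (0.91 and 0.89), GRE3, an aldose reductase (0.91 and 0.82), SSD1 (0.91 and 0.82) and IMP21 (0.90 and 0.85). TRX2 was most like GRX1 (0.92 and 0.87), PRX1 most like MDH3, the peroxisomal malate dehydrogenase (0.91 and 0.91), and TSA1 most like SBA1, an Hsp90 cochaperone (0.87 and 0.90). SOD2 was most like HSP12 (0.91 and 0.78). CTT1 was most like BDH2 (0.94 and 0.65) and TSA2 most like YNL134C (0.92 and 0.79), and both rested more on the 2 clones. GPX2 was most like YBR242W (0.89 and 0.80), CCP1 most like YBL086C (0.85 and 0.89) and TRR1 most like EGT2 (0.81 and 0.79). Among the 10 genes themselves the order rested on the 2 clones. Over 26 groups AHP1 and TSA2 were most alike (r = 0.84, 0.67 without them) and TRR1 and CTT1 most opposed (-0.72 and -0.60). Over 24 groups PRX1 and TRX2 were most alike (0.77, against 0.44 over 26), and AHP1 and GPX2 were at -0.62, against 0.12 over 26.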

How the data were processed

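Polyadenylated RNA of 78 libraries was analysed. The files hold whole-number counts per gene that the authors deposited without normalization. Per the design text and labels, reads were trimmed and deduplicated by molecular identifier with fastp 0.23.1. STAR 2.5.2b aligned them and featureCounts (Subread 1.5.2) counted the hits that were unique. Use of strand is not given in the sources used here. Close paralogs (TSA1 and TSA2, TRX1 and TRX2, TRR1 and TRR2, and GPX1, GPX2 and HYR1) are therefore uncertain where reads match both. The submitters' processing notes name build R64, but the files place the genes on 212 contigs not found in that build, so no coordinates, sequences or promoter windows were used here. Of 5229 gene rows 5058 matched an R64 locus tag. A row pooling construct sequences (median 0.886% of counts) and a row named UNDEF (2.36%) were left out.

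Counts were tested in edgeR 4.0.16 (R 4.3.3) with TMM scaling, filterByExpr (5212 genes kept, 17 left out) and the quasi-likelihood test, in 1 fit of all libraries with terms for group and library set (51 residual degrees of freedom). P-values were adjusted by Benjamini-Hochberg over all genes of a comparison, with a threshold of 0.05. Each SE was obtained by dividing the log2 fold change by the square root of its F. CPM are scaled by TMM, and values within a set are differences of mean log2 CPM with a prior count of 2. The code was tested on simulated data. Alternatives were DESeq2 1.42.0, RLE size factors, no filter, other batch terms, fits of only the first set and fits without each library in turn. Comparisons within plate rows and without M495-F02 were added after the data were seen. Genes named follow a rule: for each member up to 3 clones on each side by size among those past the threshold, the 4 clones with most calls, and of each list up to 2 members on each side, fewer where calls were small. The members, lists and rule were chosen with earlier results of these data known.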

Additional observations from a re-analysis of the deposited data

Results flagged for a closer look

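Levels of 9 of the 10 genes differed among the 24 clones in edgeR's F test, a test of the difference between clones itself. Adjusted p was 4.43e-19 for AHP1, 6.65e-17 for PRX1, 1.77e-16 for TSA2, 2.22e-14 for CTT1, 8.58e-14 for TRX2, 5.63e-10 for SOD2, 1.01e-08 for CCP1, 7.08e-07 for TSA1 and 9.99e-05 for TRR1. The same test passed for 82.8% of all genes, so the count for these 10 is near that background. Groups of 3 libraries were too small for a search for single outlying libraries.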

How the results depend on the processing

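Against the control, 35 higher and 7 lower calls became 4 and 0 without the library set term and 76 and 9 in the first set alone. DESeq2 gave 35 and 11. Leaving out single libraries gave 20 (without control replicate 1) to 38 higher calls and 1 (without control replicate 3) to 10 lower ones. Genes differing among clones numbered 9, but 3 without the set term and 9 to 10 when single libraries were left out. Each clone against the other clones gave 27 higher and 38 lower calls, against 9 and 1 without the set term, 50 and 60 in the first set alone, and ranges of 25 to 30 and 33 to 39 when single libraries were left out. Calls lower in the resubmitted set stayed at 8, and calls higher in it went to 1 without the filter, with a range of 0 to 1. The cause of these shifts was not tested.

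AHP1 near the control changed sign. In M493-C02 (0.03) it was -0.40 against its plate row and ranged from -0.037 to 0.073 without single libraries. In M492-E01 (0.03) it was -0.39 against its row, -0.022 in the first set alone, and ranged from -0.073 to 0.10. AHP1 in M492-E11 (0.11) was -0.29 and GPX2 in M491-F10 (-0.16) was 0.0041 against their rows. The row of M493-C02, M492-E01 and M492-E11 includes M495-F02, the clone with the highest AHP1 mean. Of 38 named gene and clone pairs, all 38 kept their side under DESeq2, RLE and no filter. Without the set term 19 lost the call and 4 kept it (TSA2 in M495-F02 and M495-D09, CTT1 and SOD2 in M495-F02). The remaining pairs, of AHP1 or M491-F10, were not tested and had no call to lose.

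With the replicate block there were 35 higher and 6 lower calls against the control, 9 genes differed among clones, and 27 higher and 38 lower calls were found against the other clones. The labels do not say that a number marks a shared batch beyond the library set. Deviations from the group mean, in a clone and the control with the same number, had a median correlation of 0.642 (0.0752 to 0.89). Within the first set alone, replicate 1 of a clone and of the control were set beside each other as deviations from their group's first-set mean. There the median correlation was -0.0148 (-0.299 to 0.314), so the samples were treated as sharing only a number.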
